A study of Mus musculus with 15 samples.

Results

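Heme is the iron-containing ring that lets haemoglobin carry oxygen. A red cell precursor makes it in large amounts and must keep any free surplus low, because unbound heme is toxic. The 10 genes described here act on heme after it has been made. Flvcr1 and Abcg2 encode exporters of the plasma membrane, Slc48a1 a transporter that moves heme out of lysosomes and endosomes, and Pgrmc1 a membrane protein that binds heme. Eif2ak1 and Bach1 encode a kinase and a transcription factor that are switched off by heme, and Hmox1, Hmox2, Blvra and Blvrb encode the enzymes that break it down. These genes were chosen by name, with earlier results of these data known. All 10 were found among the 55487 mouse genes in the count tables.

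Their RNA was measured in erythroid progenitors, the dividing precursors of red cells, taken from the liver of 129S6/SvEvTac mouse embryos at stage E12.5. Group 1 of the mice comprised 3 wildtype and 3 Rpl5 mutant libraries, labelled as polyA RNA. Group 2, labelled as total RNA, added a kind of sample: beside 3 wildtype and 3 mutant libraries it held 3 low-yield mutant ones. The product of Rpl5 is a part of the large ribosomal subunit, and the gene is among those mutated in Diamond Blackfan anemia syndrome, in which the marrow makes too few red cells. The sample sheet of group 2 gives the genotype of both kinds of mutant as Rpl5plusSkax23Jus, and the labels of group 1 say only mutant. What low-yield refers to is not defined in the labels. Levels were compared within a group of mice only, since the kind of RNA differed between the groups.

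Total counts per library lay between 48510828 and 58513669 for group 1 and between 24954324 and 44827821 for group 2. Nothing in the labels says whether replicates came from separate embryos or were pooled, so p-values measure the spread between these libraries, which may be technical. On the first principal component of group 1 (37.8% of the variance), mutant replicate 1 lay among the wildtype libraries. In group 2 this component (28.4%) separated the wildtype from the mutant libraries. Rpl5 itself, in counts scaled to a library size of 1000000 (CPM), was at 656, 668 and 744 in wildtype against 520, 561 and 570 in mutant libraries of group 1. The group 2 values were 324, 303 and 374 CPM for wildtype, 232, 248 and 248 CPM for mutant and 243, 219 and 278 CPM for low-yield libraries. The mutant libraries lay below every wildtype library of their group. Rpl5 fell by 0.32 on the log2 scale in group 1 (SE 0.07, adjusted p = 0.0110), by 0.46 in the group 2 mutant (SE 0.10, adjusted p = 0.0128) and by 0.44 in its low-yield counterpart (SE 0.10, adjusted p = 0.0101). The adjusted p of the group 2 mutant was 0.0586 without wildtype replicate 3 and 0.0671 without mutant replicate 1. That of the low-yield mutant was 0.0566 and 0.0753 without its replicates 1 and 2.

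Marker genes of several cell types were read to see what the libraries held. The summed level of 9 erythroid markers, from Gata1 and Klf1 to the globins, was 3445 to 4378 CPM in wildtype and 2103 to 2114 CPM in mutant libraries of group 1. In group 2 it was 3873 to 6810 CPM in wildtype, 2759 to 3176 CPM in mutant and 2446 to 3211 CPM in low-yield mutant libraries. Among these markers, 8 of 9 were called lower in group 1, 3 of 9 in the group 2 mutant and 5 of 9 in the low-yield mutant, and none was called higher. Gata1 itself had a higher mean in the mutants, with 206 to 213 CPM in wildtype and 214 to 239 CPM in mutant libraries of group 1, and with overlapping libraries in group 2 (347 to 384 CPM in wildtype, 348 to 407 CPM in mutant and 377 to 392 CPM in low-yield mutant libraries). The shares called lower among all tested genes were 6.52%, 2.8% and 5.56% in the same order. The 12 macrophage markers summed to at most 9.75 CPM in any library, and Vsig4, Timd4, Spic and Cd5l were at 0 in all 15 libraries. The 10 hepatocyte markers summed to 34.3 to 64.5 CPM in wildtype and 6.10 to 22.6 CPM in mutant libraries of group 1, where 2 were called lower, and to 10.03 to 79.3 CPM in wildtype, 9.17 to 48.8 CPM in mutant and 42.8 to 49.8 CPM in low-yield mutant libraries of group 2. For 5 megakaryocyte markers the sums were 13.7 to 24.1 CPM in wildtype and 19.1 to 33.6 CPM in mutant libraries of group 1, and 11.2 to 13.7, 18.8 to 19.5 and 28.4 to 37.2 CPM in wildtype, mutant and low-yield mutant libraries of group 2. For 5 endothelial markers they were 1.91 to 4.13 and 3.52 to 9.29 CPM in group 1, and 0.896 to 1.85, 3.20 to 5.56 and 6.06 to 9.44 CPM in group 2, in the same order. Of the megakaryocyte and of the endothelial markers, 1 each was called higher in either mutant of group 2, where 3.23% (mutant) and 6.14% (low-yield mutant) of all tested genes were higher. The 6 granulocyte markers summed to 68.0 to 526 CPM in wildtype and 188 to 1040 CPM in mutant libraries of group 1, and to 13.8 to 25.5 CPM in wildtype, 91.7 to 188 CPM in mutant and 130 to 275 CPM in low-yield mutant libraries of group 2. Of these 6, none was called in group 1, while group 2 had 3 called higher for the mutant and 6 for low-yield libraries. The part of erythroid stage or of RNA from these other cell types in the results below was not tested. In such bulk samples, fewer cells of a type cannot be told apart from less RNA per cell.

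Measured per length, the 10 genes spanned a wide range in wildtype progenitors. Blvrb, which encodes biliverdin reductase B, stood first with 112 CPM per kb of exon in group 1 and 131 in group 2. Slc48a1 (39.2 and 43.1) and Eif2ak1 (36.2 and 32.5) followed in both groups. Pgrmc1 and Hmox2 came next with 27.6 and 21.7 CPM per kb in group 1, and with 19.1 and 20.6 in group 2, where their libraries overlapped. Blvra was at 14.7 and 9.07 CPM per kb. The exporters were low on this scale: Abcg2 was at 8.69 and 7.52 CPM per kb and Flvcr1 at 6.85 and 6.80. Bach1 was at 5.30 and 7.58, and the libraries of Bach1, Abcg2 and Flvcr1 overlapped with their neighbours in group 2. Hmox1, which encodes the inducible heme oxygenase, was the lowest with 0.490 and 0.674 CPM per kb. With the longest transcript as the length in place of all exons, Eif2ak1 passed Slc48a1 and Hmox2 passed Pgrmc1 in group 1, and Bach1 moved from place 7 to place 9 in group 2.

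**Figure D1:**
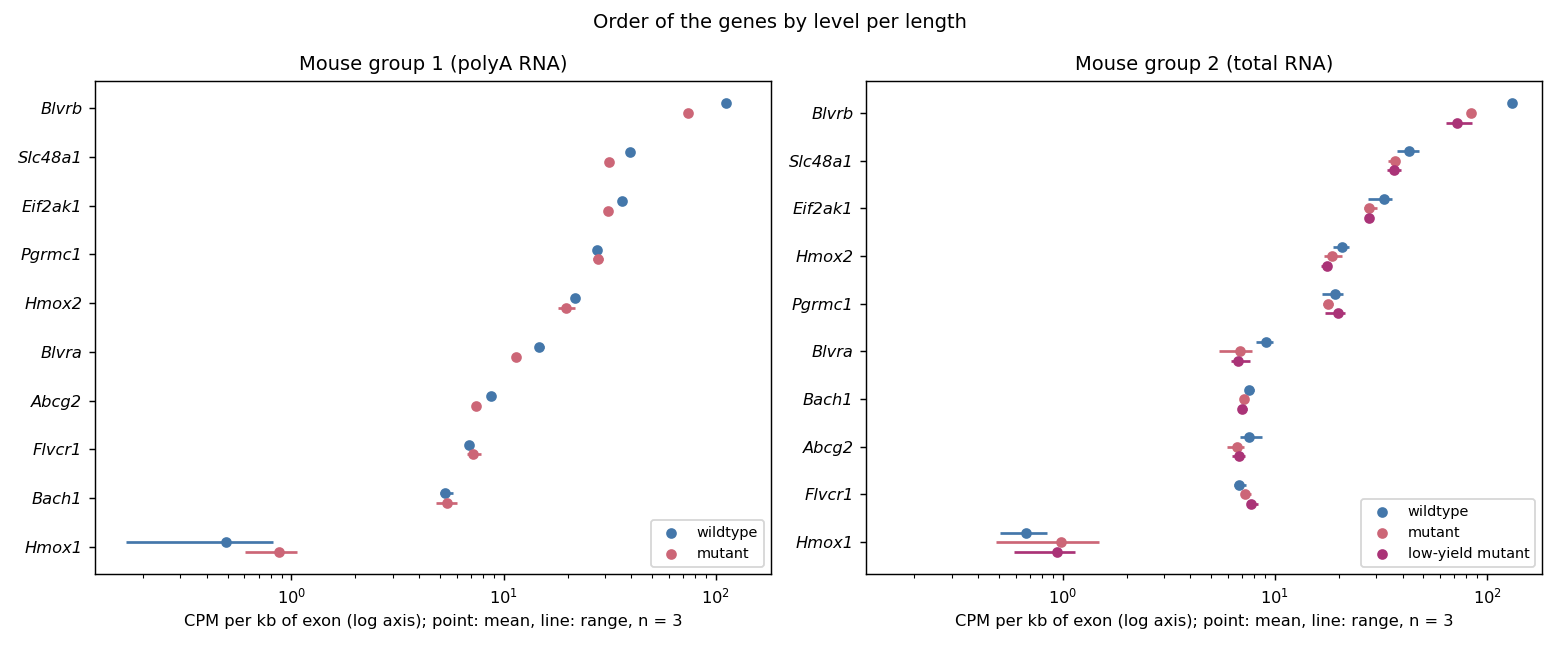
Level per length of the 10 genes (x axis, CPM per kb of exon, log axis) in each group of libraries, ordered by the wildtype mean. Points are means and lines the range of 3 libraries. In both groups of mice the points run from Blvrb at over 100 to Hmox1 below 1 CPM per kb in wildtype.

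The mutant progenitors were compared with wildtype ones to see how the levels of these genes differed between the genotypes. In group 1, 5 of the 10 genes were lower in the mutant: Blvrb, Blvra, Slc48a1, Eif2ak1 and Abcg2, by 14.3% to 34.3%. None was called higher, and Flvcr1, Pgrmc1, Bach1, Hmox1 and Hmox2 did not pass the test (adjusted p from edgeR's quasi-likelihood test below 0.05). Among all 14048 genes tested, 11.9% were called, 5.42% higher and 6.52% lower. With the replicate number as a block the number of calls rose from 1678 to 2772, and the same 5 members were called. In group 2, Blvrb was the only member called, and it was lower in either kind of mutant. The mutant had 6.02% of 15024 tested genes called, 3.23% higher and 2.8% lower, and the low-yield mutant had 11.7%, 6.14% higher and 5.56% lower. The group 2 comparisons share their wildtype libraries.

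The median log2 fold change of the 10 genes was -0.18 in group 1, -0.17 in the group 2 mutant and -0.19 in the low-yield mutant. Over all genes tested it was 0.01, -0.01 and -0.0032 in this order. The CPM of mutant and wildtype did not overlap for 5 of the 10 genes in group 1, all lower, where 31.6% of tested genes did not overlap and 16.6% were lower. It did not overlap for 2 genes in the group 2 mutant, Blvra and Blvrb, both lower (23.2% of tested genes, 11.8% lower). In the low-yield mutant it did not overlap for 4 genes, with Blvra, Blvrb and Hmox2 lower and Flvcr1 higher (29.9% of tested genes, 14.6% lower and 15.3% higher).

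Over both groups of mice, in a fit blocked by group of mice, 5 of the 10 genes were called, all lower, and they were those called in group 1. In that fit 18% of 15954 tested genes were called, 8.96% higher and 8.99% lower. The difference between the mutant effects of the 2 groups of mice was tested as an interaction. It was called for none of the 10 genes and for 0.0251% of all genes (4 of 15954; 419 had an unadjusted p under 0.05, and DESeq2 called 12). A call in group 1 without a call in group 2 is thus not shown to be a difference between the groups.

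**Figure D2:**
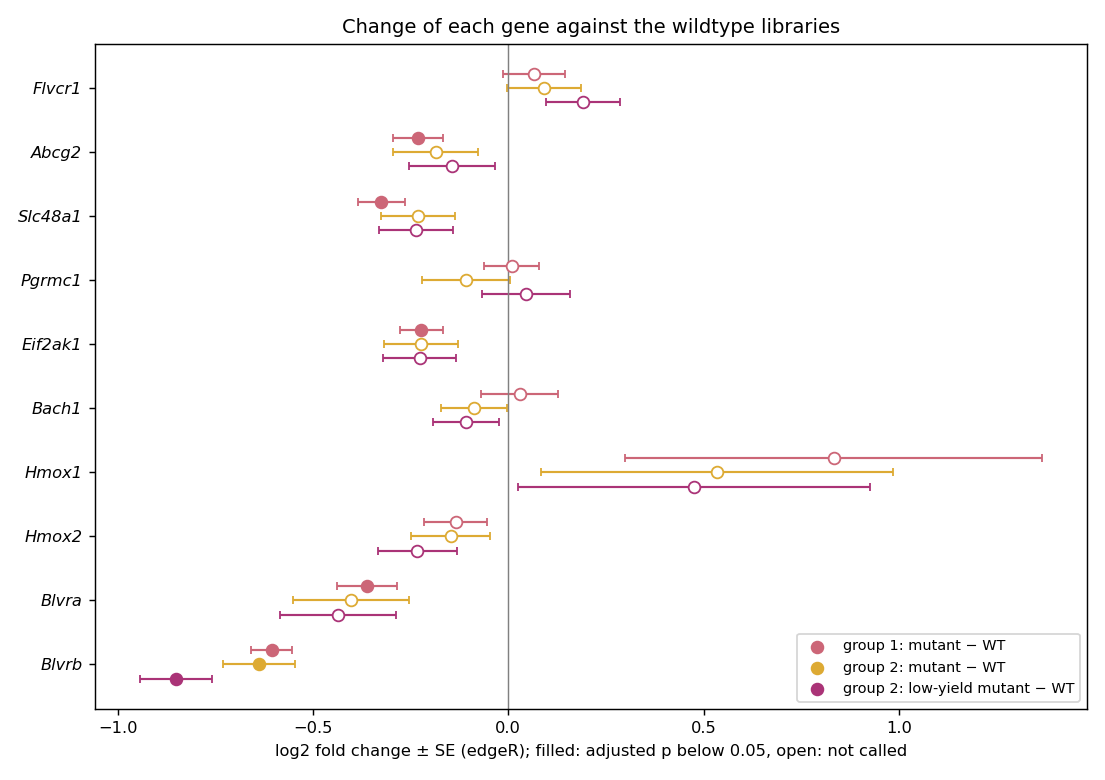
Log2 fold change with its SE (x axis) of each of the 10 genes (y axis) against the wildtype libraries, for the group 1 mutant, the group 2 mutant and the low-yield mutant. Filled points had an adjusted p below 0.05. Blvrb lies to the left of all others in every comparison, from -0.61 to -0.85, and Hmox1 has the longest error bars.

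The breakdown of heme starts with the heme oxygenases, which open the ring to biliverdin and release its iron. Hmox2 (GRCm38, chr16:4726361-4766742) encodes the constitutive enzyme and Hmox1 (chr8:75093621-75100589) the inducible one. Hmox2 was at 50.2, 47.1 and 47.0 CPM in wildtype and 40.1, 43.3 and 48.0 CPM in mutant libraries of group 1. Group 2 libraries had 49.7, 45.7 and 41.8 CPM in wildtype, 46.0, 37.6 and 40.1 CPM in mutant and 39.3, 36.8 and 40.6 CPM in low-yield mutant libraries. The low-yield libraries all lay below the wildtype ones, and the other comparisons overlapped. The log2 fold changes were -0.13 (SE 0.08), -0.15 (SE 0.10) and -0.23 (SE 0.10), with adjusted p = 0.324, 0.485 and 0.164. Leaving out 1 library gave -0.20 to -0.08 in group 1, -0.22 to -0.08 in the group 2 mutant and -0.29 to -0.16 in the low-yield mutant, with no call. Hmox2 shares its locus with Gm15859 on the same strand and with Cdip1 on the opposite one, and whether the counting used strand is not given in the sources used here.

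Hmox1 had the fewest counts of the 10 genes, with 15 to 94 counts a library in group 1 and 22 to 77 in group 2. Its level was 0.290, 0.846 and 1.44 CPM in wildtype and 1.05, 1.69 and 1.86 CPM in mutant libraries of group 1. Its group 2 levels were 0.886, 1.18 and 1.47 CPM in wildtype, 2.59, 0.849 and 1.70 CPM in mutant and 1.92, 2.01 and 1.03 CPM in low-yield mutant libraries. The means were higher in all 3 mutant groups but the libraries overlapped in every comparison. Each mutant library of group 1 was above the wildtype library of its own replicate number, and the value blocked by that number was 1.03 (SE 0.44, adjusted p = 0.105). The log2 fold changes of 0.83 (SE 0.53), 0.54 (SE 0.45) and 0.47 (SE 0.45) did not pass the test (adjusted p = 0.362, 0.588 and 0.577). Leaving out 1 library moved them widely, to 0.44 (without wildtype replicate 1) and 1.43 (without wildtype replicate 3) in group 1, to between 0.13 and 0.85 in the group 2 mutant and to between 0.31 and 0.73 in the low-yield mutant, with no call. In the fit over both groups of mice the value was 0.69 (SE 0.37, adjusted p = 0.226). Per kb of exon, the level of Hmox2 was 25.8 to 137 times that of Hmox1 in single wildtype libraries and 20.2 to 30.1 times in mutant libraries of group 1. In group 2 it was 22.5 to 44.3 times in wildtype, 14.04 to 35.0 times in mutant and 14.5 to 31.2 times in low-yield mutant libraries, and these ranges overlapped.

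Biliverdin reductases carry out the next step. Blvra (chr2:127070665-127097084) encodes the enzyme that turns the main isomer of biliverdin into bilirubin. It was at 34.8, 37.7 and 35.4 CPM in wildtype and 28.4, 27.4 and 28.2 CPM in mutant libraries of group 1, with no overlap. Wildtype libraries of group 2 had 22.6, 23.9 and 20.0 CPM, set against 17.9, 13.3 and 19.0 CPM in mutant and 15.4, 15.1 and 18.6 CPM in low-yield mutant libraries. Both mutant groups lay below all wildtype libraries there too. Blvra fell by 0.36 on the log2 scale in group 1 (22.1%; SE 0.08, adjusted p = 0.0110). This call was lost without wildtype replicate 2, with -0.33 and an adjusted p of 0.0657. The group 2 values of -0.40 (SE 0.15, adjusted p = 0.134) and -0.44 (SE 0.15, adjusted p = 0.0749) were not called. With 1 library left out they ranged from -0.51 to -0.26 and from -0.54 to -0.38. The low-yield value was called by DESeq2 (-0.44, adjusted p = 0.0485), with no filter on low counts (-0.43, adjusted p = 0.0494) and with the replicate block (-0.45, adjusted p = 0.0494). It had an adjusted p of 0.0373 without mutant replicate 2 and of 0.0483 without low-yield replicate 3. Over both groups of mice Blvra fell by 0.38 (SE 0.08, adjusted p = 0.00361).

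Blvrb (chr7:27447978-27466144) fell most among the 10 genes. Its enzyme reduces other biliverdin isomers and flavins, and it is known as an abundant protein of red cells. In group 1 it was at 309, 311 and 315 CPM in wildtype libraries and at 204, 207 and 204 CPM in mutant ones. For group 2 the levels were 367, 366 and 358 CPM in wildtype, 233, 232 and 235 CPM in mutant, and 191, 178 and 236 CPM in low-yield mutant libraries. The SD within a group was 1.81 to 5.24 CPM, apart from the low-yield mutant (30.2 CPM), whose replicate 3 lay with the other mutants while replicates 1 and 2 were lower. No mutant library reached the level of a wildtype one. The 12 haemoglobin genes took 0.374% to 0.689% of counts in wildtype and 0.146% to 0.207% in mutant libraries of group 1. Their share in group 2 was 0.494% to 1.13% in wildtype and 0.270% to 0.348% in mutant libraries, and 0.263%, 0.223% and 0.379% in low-yield replicates 1, 2 and 3. Its part in the Blvrb result was not tested.

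Blvrb fell by 34.3% in group 1 (log2 fold change -0.61, SE 0.05, adjusted p = 7.73e-05). In the group 2 mutant it fell by 35.8% (-0.64, SE 0.09, adjusted p = 0.00146), against 44.5% for low-yield libraries (-0.85, SE 0.09, adjusted p = 9.66e-05). The effects of both groups of mice were close in size, with an interaction of -0.02 (SE 0.09, adjusted p = 1.00). Over both groups of mice the log2 fold change was -0.62 (SE 0.04, adjusted p = 2.31e-08), which put Blvrb at place 10 of 15954 genes by p. Between the low-yield and the other mutant libraries the difference was -0.21 (SE 0.09), with an unadjusted p of 0.0370 and an adjusted p of 0.999. Relative to Blvra, the level of Blvrb per length was 7.62 times as high in wildtype and 6.43 times as high in mutant libraries of group 1, and 14.4, 12.3 and 10.8 times as high in wildtype, mutant and low-yield mutant libraries of group 2.

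**Figure D3:**
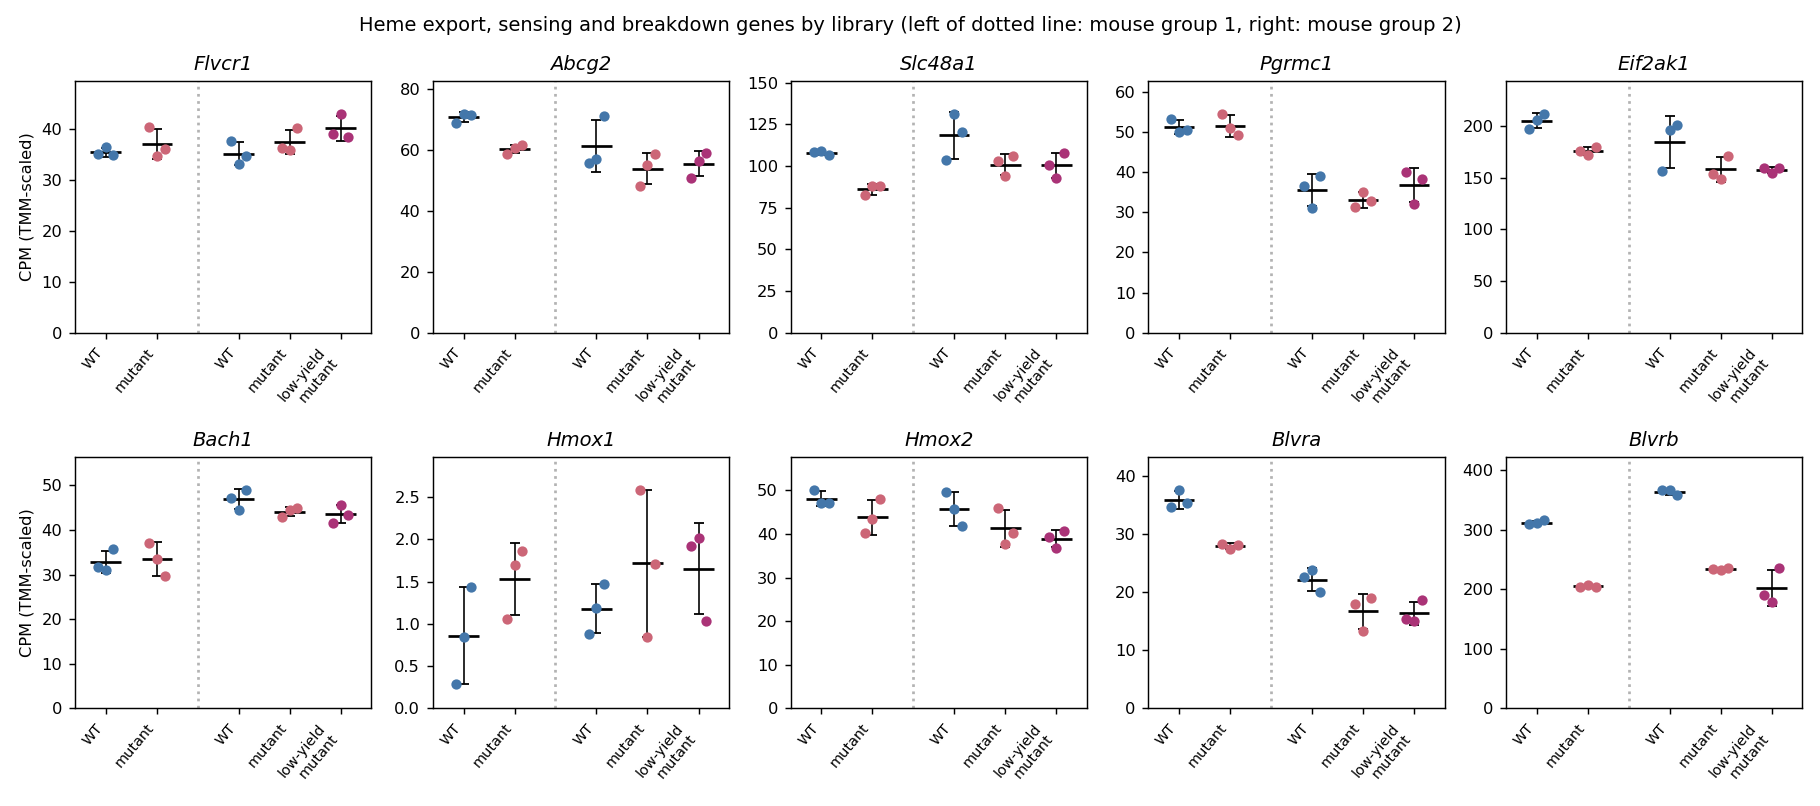
Level of each of the 10 genes in every library (y axis, TMM-scaled CPM from 0, separate scale for each gene). Points are libraries, horizontal bars the mean and error bars the SD of 3 libraries, and the dotted line parts the groups of mice. The Blvrb points of wildtype (309 to 315 in group 1, 358 to 367 in group 2) stand clear of all mutant points, and those of Pgrmc1 and Bach1 overlap.

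The sequences in front of the biliverdin reductase genes are shown because both genes were called lower in group 1 and over both groups of mice, and those of Flvcr1 and Pgrmc1 because they hold the same motif as Blvra. They are the 250 bases before a gene's start, 5′ to 3′ on the gene's strand, from RefSeq for GRCm38.p6. The table of promoters matched 8 of the 10 genes with 13 windows; Hmox1 and Slc48a1 were not matched. Capitals mark TGACNNNGC, the core of the antioxidant response element bound by BACH1 or NRF2 with a small MAF protein, and CCNCNCCC, a box of the kind bound by KLF proteins, on either strand. The last capital of Blvrb begins a match that runs on past the start. Blvrb has a second window in the table (chr7:27452168-27452417), which held no match of either motif and is not printed.
Blvrb, chr7:27447728-27447977, plus strand: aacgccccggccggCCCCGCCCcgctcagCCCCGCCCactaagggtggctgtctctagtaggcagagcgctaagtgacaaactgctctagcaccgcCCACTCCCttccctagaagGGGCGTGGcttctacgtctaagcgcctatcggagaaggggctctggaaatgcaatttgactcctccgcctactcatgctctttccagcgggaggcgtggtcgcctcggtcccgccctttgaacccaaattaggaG
Blvra, chr2:127070407-127070656, plus strand: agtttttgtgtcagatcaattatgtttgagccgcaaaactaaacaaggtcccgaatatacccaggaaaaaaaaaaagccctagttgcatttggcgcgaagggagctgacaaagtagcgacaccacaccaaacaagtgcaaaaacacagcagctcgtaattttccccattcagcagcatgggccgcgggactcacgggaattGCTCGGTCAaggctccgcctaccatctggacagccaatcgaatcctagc
Flvcr1, chr1:191026191-191026440, minus strand: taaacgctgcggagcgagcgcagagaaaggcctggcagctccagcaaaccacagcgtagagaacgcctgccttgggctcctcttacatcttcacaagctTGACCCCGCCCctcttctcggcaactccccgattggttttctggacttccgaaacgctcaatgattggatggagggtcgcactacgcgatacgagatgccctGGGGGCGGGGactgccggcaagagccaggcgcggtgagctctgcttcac
Pgrmc1, chrX:36597943-36598192, plus strand: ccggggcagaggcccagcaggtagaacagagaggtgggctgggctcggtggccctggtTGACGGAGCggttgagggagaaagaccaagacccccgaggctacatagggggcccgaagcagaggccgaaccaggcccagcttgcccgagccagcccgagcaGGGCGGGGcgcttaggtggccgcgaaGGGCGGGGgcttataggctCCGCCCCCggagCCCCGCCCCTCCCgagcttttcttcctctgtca

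Motifs were searched on both strands over the windows of 250 bases before to 50 bases after each start. TGACNNNGC stood in 3 of the members' 13 windows, 1 each for Blvra, Flvcr1 and Pgrmc1, and in 12.4% of all 32851 windows. Blvra fell in group 1, and Flvcr1 and Pgrmc1 were not called in any comparison. The stricter spelling TGACTCAGC was in none of the members' windows and in 0.454% of all windows. AGATAA, a site of GATA factors, was also in none, against 11.2% of all windows. CCNCNCCC was found in 10 of the 13 windows, which belong to 7 of the 8 genes, and in 49.5% of all windows. In Flvcr1 a match of this motif overlaps the TGACNNNGC match. A match describes letters in a window and is no measurement of binding.

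Of the sensors, Eif2ak1 (chr5:143817788-143904251) encodes the heme-regulated kinase HRI, which phosphorylates the initiation factor eIF2α and slows protein synthesis when heme is short. It was at 198, 206 and 212 CPM in wildtype and 176, 172 and 180 CPM in mutant libraries of group 1. In group 2 it was at 156, 196 and 201 CPM in wildtype, 154, 149 and 171 CPM in mutant and 160, 154 and 159 CPM in low-yield mutant libraries. Wildtype replicate 1 of group 2 lay among the mutants, and in group 1 the genotypes did not overlap. Eif2ak1 fell by 0.22 on the log2 scale in group 1 (14.3%; SE 0.05, adjusted p = 0.0225), and by the same size over both groups of mice (0.22, SE 0.06, adjusted p = 0.0154). In group 2 the values of -0.22 and -0.23 (both SE 0.09) were not called (adjusted p = 0.196 and 0.141). Without wildtype replicate 1 they were -0.32 and -0.33, with adjusted p = 0.0223 and 0.0133, and without wildtype replicate 3 they were -0.16 and -0.16, with adjusted p = 0.466 and 0.388. The call in group 1 was lost without wildtype replicate 1 (0.0571), 2 (0.0907) or 3 (0.0727) or mutant replicate 3 (0.0767; all adjusted p). Eif2ak1 overlaps Ankrd61 and Aimp2 on the opposite strand.

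Bach1 (chr16:87698945-87733346) encodes a repressor that leaves DNA when it binds heme. It was at 31.7, 30.9 and 35.6 CPM in wildtype and 37.2, 33.6 and 29.6 CPM in mutant libraries of group 1. Levels in group 2 were 47.0, 44.5 and 49.0 CPM in wildtype, 42.9, 44.5 and 44.8 CPM in mutant and 41.6, 45.6 and 43.3 CPM in low-yield mutant libraries. The groups overlapped in every comparison. Its log2 fold changes of 0.03, -0.09 and -0.11 (SE 0.10, 0.08 and 0.08) did not pass the test (adjusted p = 0.886, 0.644 and 0.483). The ranges with 1 library left out were -0.05 to 0.11, -0.13 to -0.06 and -0.14 to -0.07.

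Among the transporters, Slc48a1 (chr15:97778520-97792692), also called HRG1, was at 108, 109 and 106 CPM in wildtype and 82.5, 87.8 and 88.0 CPM in mutant libraries of group 1. The group 2 levels were 103, 131 and 121 CPM in wildtype, 103, 93.8 and 106 CPM in mutant and 101, 92.7 and 108 CPM in low-yield mutant libraries. The genotypes stood apart in group 1 and overlapped in group 2 through wildtype replicate 1. Slc48a1 fell by 0.33 on the log2 scale in group 1 (20.2%; SE 0.06, adjusted p = 0.00519), and by 0.28 over both groups of mice (SE 0.06, adjusted p = 0.00269). In group 2 the values of -0.23 and -0.24 (both SE 0.10) were not called (adjusted p = 0.184 and 0.129). They were -0.31 and -0.32 without wildtype replicate 1, with adjusted p = 0.0435 and 0.0260, and -0.15 and -0.16 without wildtype replicate 2, with adjusted p = 0.527 and 0.430. Slc48a1 overlaps Hdac7 on the opposite strand.

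Abcg2 (chr6:58584523-58695676) encodes an ATP-driven pump that exports porphyrins, heme and many drugs. It was at 69.0, 71.9 and 71.7 CPM in wildtype and 58.9, 60.7 and 61.6 CPM in mutant libraries of group 1, with no overlap. Among group 2 libraries it was at 55.8, 57.1 and 71.1 CPM in wildtype, 48.3, 55.0 and 58.6 CPM in mutant and 51.0, 56.6 and 59.1 CPM in low-yield mutant libraries. These overlapped, with wildtype replicate 3 highest. Abcg2 fell by 0.23 on the log2 scale in group 1 (14.8%; SE 0.06, adjusted p = 0.0356), and the group 2 values of -0.19 and -0.14 (both SE 0.11) were not called (adjusted p = 0.390 and 0.466). These were -0.07 and -0.02 without wildtype replicate 3, and reached -0.25 and -0.20 without other libraries. The call in group 1 rested on all 6 libraries: without wildtype replicates 1, 2 and 3 the adjusted p was 0.0896, 0.121 and 0.0774, and without mutant replicates 1, 2 and 3 it was 0.0782, 0.0529 and 0.0971. Over both groups of mice Abcg2 fell by 0.21 (SE 0.07, adjusted p = 0.0349). That call was lost without group 1 wildtype replicate 2 (0.0723) or 3 (0.0617), without group 1 mutant replicate 1 (0.0639), 2 (0.0651) or 3 (0.0569), without group 2 wildtype replicate 3 (0.0762) and without group 2 mutant replicate 1 (0.0776).

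Flvcr1 (chr1:191005847-191026158), the exporter named after a cat leukemia virus that uses it as a receptor, was at 35.1, 36.4 and 34.9 CPM in wildtype and 40.5, 34.8 and 36.0 CPM in mutant libraries of group 1. In group 2 it was at 37.7, 33.2 and 34.7 CPM in wildtype, 36.3, 36.0 and 40.1 CPM in mutant and 39.1, 43.0 and 38.4 CPM in low-yield mutant libraries. All low-yield libraries were above the wildtype ones, and the other comparisons overlapped. The log2 fold changes of 0.07 (SE 0.08), 0.09 (SE 0.10) and 0.19 (SE 0.09) were not called (adjusted p = 0.663, 0.674 and 0.229). With 1 library left out they ranged from -0.0012 to 0.11, from 0.04 to 0.15 and from 0.14 to 0.25, without a call. Flvcr1 overlaps A230020J21Rik on the opposite strand.

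Pgrmc1 (chrX:36598206-36606079) binds heme and is known as a partner of ferrochelatase, the last enzyme of heme synthesis. It ranged from 49.98 to 53.1 CPM in wildtype and from 49.2 to 54.5 CPM in mutant libraries of group 1. In group 2 it ranged from 31.1 to 38.9 CPM in wildtype, 31.2 to 35.0 CPM in mutant and 31.9 to 39.9 CPM in low-yield mutant libraries. The groups overlapped throughout, and the log2 fold changes of 0.0084, -0.11 and 0.05 were not called (adjusted p = 0.958, 0.679 and 0.858). With 1 library left out they lay between -0.03 and 0.05, -0.20 and -0.04, and -0.04 and 0.14.

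The low-yield libraries were also compared with the other mutant libraries of group 2. None of the 10 genes was called, and the share called among all 15024 tested genes was 0% by edgeR (400 genes had an unadjusted p under 0.05, and DESeq2 called 6). The CPM of the 2 groups overlapped for all 10 genes, while it did not for 8.21% of tested genes (4.07% higher, 4.15% lower). The median log2 fold change of the 10 genes was -0.01. Blvrb (-0.21) and Pgrmc1 (0.15, SE 0.11) were the values farthest from 0. Leaving out 1 library moved Blvrb to between -0.34 (without low-yield replicate 3) and -0.13 (without low-yield replicate 2), and Pgrmc1 to between 0.09 (without low-yield replicate 1) and 0.25 (without low-yield replicate 2), with no call.

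Other genes of heme transport and scavenging were read beside the 10. Of 12 tested over both groups of mice, 4 were called lower and none higher, where 8.99% of all tested genes were lower and 8.96% higher. Abcb10, a mitochondrial transporter needed for heme synthesis, fell by 0.73 on the log2 scale (SE 0.07, adjusted p = 1.79e-06), with 158 ± 18.6 CPM in wildtype and 95.8 ± 4.86 CPM in mutant libraries of group 1 (SD, n = 3). Hebp1, which encodes a heme-binding protein, fell by 0.51 (SE 0.05, adjusted p = 2.80e-06), Abcc5 by 0.39 (SE 0.08, adjusted p = 0.00212) and Abcb6 by 0.22 (SE 0.06, adjusted p = 0.0110). The list's median of -0.03 lay nearer the 0.0047 of all genes than the -0.18 of the 10 genes did. Of 11 tested within a group of mice, 3 were called lower in group 1, 2 in the group 2 mutant and 4 in the low-yield mutant, against 6.52%, 2.8% and 5.56% of all genes. The haptoglobin gene Hp, chosen after its values were seen, was the only member called higher, in group 2 at 0.202 to 0.601 CPM in wildtype, 0.907 to 2.20 CPM in mutant and 2.22 to 3.07 CPM in low-yield mutant libraries. Of the 6 granulocyte markers, 3 were called higher in mutant and 6 in low-yield libraries of group 2, where 3.23% and 6.14% of all genes were higher, and their part in the Hp result was not tested.

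Partners and relatives of BACH1, with targets of BACH1 and of its rival NRF2, made up a list of 21 genes. Of 20 tested over both groups of mice, 9 were called lower and 1 higher (Me1, 0.61, adjusted p = 0.0216), with a median log2 fold change of -0.19. Over all tested genes 8.99% were lower, 8.96% were higher and the median was 0.0047. The 4 with the smallest p were Gclm, Nqo1, Srxn1 and Mafg. Gclm, a subunit of the enzyme that starts glutathione synthesis, fell by 0.29 (SE 0.05, adjusted p = 2.16e-04). Nqo1, a quinone reductase, fell by 0.87 (SE 0.14, adjusted p = 3.54e-04), with 9.16 ± 0.620 CPM in wildtype and 5.60 ± 0.568 CPM in mutant libraries of group 1 (SD, n = 3). Srxn1, which repairs peroxiredoxins, fell by 0.87 (SE 0.15, adjusted p = 4.52e-04), and Mafg, a small MAF partner of BACH1, by 0.27 (SE 0.05, adjusted p = 0.00148). Within the groups of mice, 8 of 20 were called lower in group 1, 5 in the group 2 mutant and 4 in the low-yield mutant, none higher. The shares of all genes called lower there were 6.52%, 2.8% and 5.56%.

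A list of 15 genes covered the other eIF2α kinases and the ATF4 response that they and HRI feed. Over both groups of mice 5 were called lower and 1 higher, beside 8.99% and 8.96% of all genes. The list's median log2 fold change was -0.14 and that of all genes 0.0047. Ppp1r15b and Ppp1r15a encode the subunits that direct a phosphatase to eIF2α, and they fell by 0.31 (SE 0.05, adjusted p = 1.01e-04) and 0.39 (SE 0.06, adjusted p = 1.73e-04). Chac1, a target of the ATF4 arm, fell by 3.31 (SE 0.62, adjusted p = 9.87e-04) from low levels, 0.251 to 1.70 CPM in wildtype and 0 to 0.161 CPM in mutant libraries of group 1, where it was not called alone (adjusted p = 0.0544). In group 2 Chac1 was at 0.696 to 3.18 CPM in wildtype and 0.134 to 0.336 CPM in mutant libraries. Grb10, an adaptor of receptor signalling, rose by 0.49 (SE 0.05, adjusted p = 3.00e-06), from 484 ± 17.0 to 693 ± 39.8 CPM in group 1 (SD, n = 3). In the single comparisons of group 1, the group 2 mutant and the low-yield mutant, 3, 3 and 4 genes of the list were called lower and 1 higher in each. Of all genes 6.52%, 2.8% and 5.56% were called lower, and 5.42%, 3.23% and 6.14% higher.

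**Figure D4:**
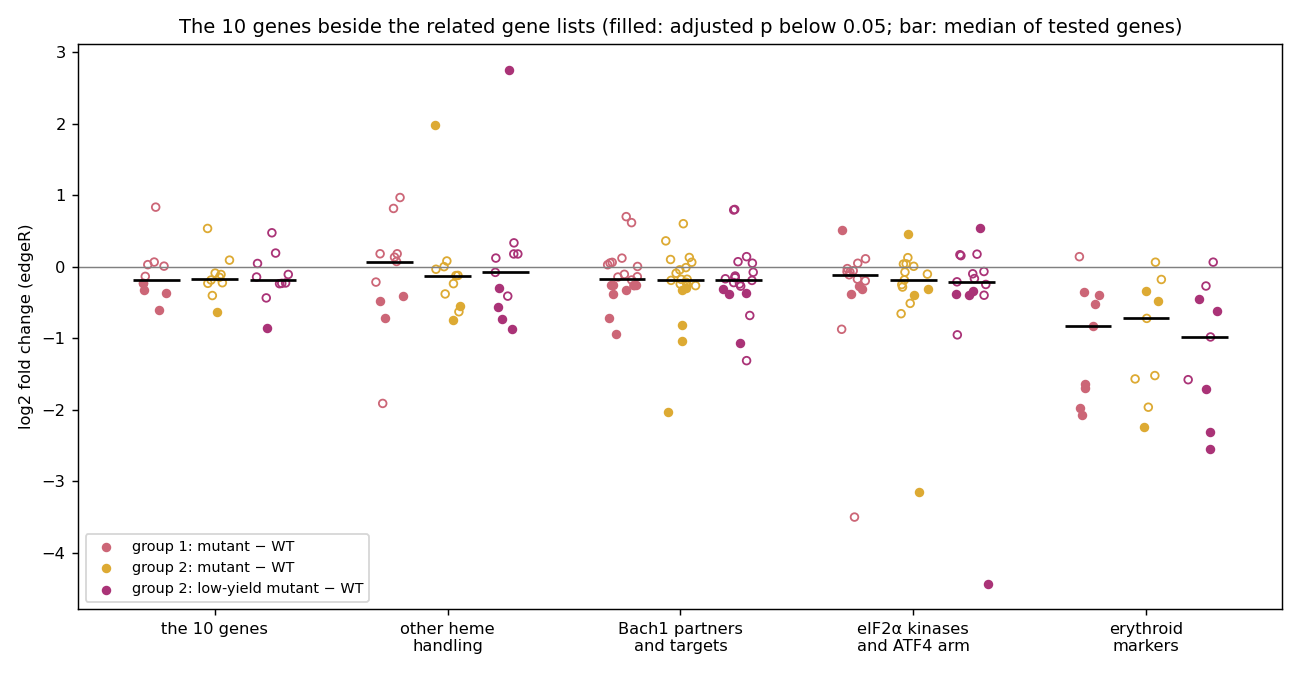
Log2 fold change (y axis) of the 10 genes and of 4 gene lists (x axis) against wildtype, for the group 1 mutant, the group 2 mutant and the low-yield mutant. Each point is a tested gene, filled where the adjusted p was below 0.05, and bars are medians. The medians of the 10 genes lie between -0.17 and -0.19, and those of the erythroid markers between -0.72 and -0.98.

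The genes whose pattern over the 15 libraries was most like that of Blvrb, Slc48a1 and Blvra, the 3 members with the smallest p over both groups of mice, were sought among 9481 genes. The measure was Pearson's r of log2 CPM centred within each group of mice. The libraries of a genotype share whatever else differs between the genotypes, so these values describe likeness only. For Blvrb they were Cldn13 (r = 0.987), Slc26a1 (0.984) and Gfap (0.982). For Slc48a1 they were Sec22b (0.953), Slc43a3 (0.945) and Rfc2 (0.943). For Blvra they were Nmral1 (0.958), Apeh (0.954) and Ptpa (0.949).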

How the data were processed

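The authors deposited expected counts per gene, already whole numbers. The submitters' processing notes name, with no role or order, cutadapt 2.3, FastQC 0.11.8, STAR 2.7.8a, RSEM 1.3.3, MultiQC 1.7 and GRCm38. Use of strand is not given in the sources used here. The labels give a column kit for small samples, and reads of 151 bp paired ends. Reporter rows (4 in group 1 with 4 counts, 5 in group 2 with 1 count) were left out.

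With edgeR 4.0.16 in R 4.3.3, counts passed filterByExpr, were TMM-scaled and tested by the robust quasi-likelihood F test (two-sided, in its default legacy form), Benjamini-Hochberg adjusted over all tested genes, called below 0.05. CPM are TMM-scaled within a group of mice. Fits covered group 1 (6 libraries), group 2 (9 libraries, so that the low-yield libraries share in the spread) and both (12 libraries). The fit was tested on simulated data. Alternatives were DESeq2 1.42.0, other size factors, filters, a replicate block, the newer quasi-likelihood form (chosen after seeing the data, and not the main test because it made more false calls in the simulated fit over both groups of mice), only the compared libraries, and leaving out each library. Expected counts were tested as deposited, since rounding changed none.

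Exon lengths are from GENCODE M21. Within group 1, wildtype and mutant libraries of the same replicate number deviated from their group means with r = 0.441, 0.186 and 0.146. Wildtype replicate 3 correlated more with a mutant library of another number. Whether the numbers pair the libraries is thus not settled. The main fits did not use them, and a block on them was run as an alternative. Libraries of a group differed by more than sampling noise (chi-square per degree of freedom 18.5 to 69.6).

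The 10 genes, the lists and the tests were chosen with earlier results of these data known. Of each list, genes called over both groups of mice were named, at most 4 with the smallest p, with Me1 and Hp added later. For the 3 members with the smallest p, the 3 genes of highest r were named, among genes of at least 2 CPM on average in both groups of mice, predicted genes and pseudogenes passed over.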

Additional observations from a re-analysis of the deposited data

How the results depend on the processing

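Blvrb was called lower than wildtype in all 62 alternatives of its comparisons with wildtype (including the fit over both groups of mice), at -0.98 to -0.60. Apart from leaving out a library, 375 of 384 member values under alternatives kept direction and call, and 3 gained a call, all for Blvra in the low-yield mutant: -0.44 by DESeq2 (adjusted p = 0.0485), -0.43 with no filter (0.0494) and -0.45 with the replicate block (0.0494), so that 2 members were called there. In group 2, libraries of the same replicate number did not all deviate together (r between -0.0681 and 0.241). The block changed no other member's call. The other 6 were interactions near 0 that turned sign: Eif2ak1 -0.012 by DESeq2 and -0.012 with DESeq2's size factors, and Hmox2 -0.019 and -0.020 with the same, -0.0091 with no filter and -0.0051 with a minimum of 5 CPM.

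Counts over all genes moved by over 1.5 times for group 1 with the replicate block (2772 calls), for the group 2 mutant by DESeq2 (1389) and with no filter (1457), for low-yield against other mutants by DESeq2 (6) and with no filter (87), and for the interaction by DESeq2 (12), with no filter (7) and with the replicate block (8). Leaving out 1 library gave 757 to 1720 calls in group 1, 419 to 1314 in the group 2 mutant, 771 to 2234 in the low-yield mutant, 0 to 22 between the mutants (22 without low-yield replicate 3) and 2 to 5 for the interaction. Members called then numbered 2 to 4, 1 to 3 and 1 to 3 in the comparisons with wildtype.

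Some log2 values turned sign when a library was left out, among them the Hmox1 interaction of -0.28 (SE 0.75). In group 1 the ranges were Bach1 -0.052 to 0.11, Flvcr1 -0.0012 to 0.11, Pgrmc1 -0.034 to 0.051; in the low-yield mutant against wildtype, Pgrmc1 -0.043 to 0.14. Between the mutants they were Abcg2 -0.033 to 0.11, Bach1 -0.050 to 0.014, Blvra -0.17 to 0.071, Eif2ak1 -0.045 to 0.061, Hmox1 -0.38 to 0.35, Slc48a1 -0.060 to 0.054, Rpl5 -0.072 to 0.11. For the interaction they were Abcg2 -0.033 to 0.15, Blvra -0.15 to 0.10, Eif2ak1 -0.12 to 0.049, Flvcr1 -0.038 to 0.088, Hmox1 -0.86 to 0.085, Hmox2 -0.11 to 0.057, Slc48a1 -0.0077 to 0.15. The cause of these changes was not tested. Hmox1 had 15 to 94 counts a library, and what part of its spread this sets was not tested.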
